A study of Mus musculus with 6 samples.

Results

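Homeobox genes outside the Hox clusters were followed in sorted intestinal stem cells with and without the catalytic core of Polycomb repressive complex 1 (PRC1). The set holds 56 genes, chosen by name as homeobox regulators of tissues other than the gut epithelium (the Pax, Dlx, Lhx, Irx, Nkx and Meis families, the sine oculis genes Six2 to Six5, and relatives of En, Msx and Otx). The table of WT and RingKO lists 47 of them among 16819 symbols, and the table of the beta-catenin libraries lists 44 among 15915. For a gene with several RefSeq rows the row with the highest mean was taken, which concerned only Otx2 in the first table.

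The homeobox encodes a DNA-binding domain shared by transcription factors that assign cells to a body region or an organ. Most such genes are silent in adult epithelium, and in embryonic stem cells many are classic Polycomb targets: PRC2 methylates histone H3 at their promoters, and PRC1, through RING1A or RING1B, places ubiquitin on histone H2A there. Intestinal stem cells at the crypt base renew the epithelium and rely on a different homeobox set, led by the caudal factors Cdx1 and Cdx2.

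The genotypes compared were all on a C57BL/6 background, all carrying the Lgr5Gfp-CreERT2 allele, which marks Lgr5+ cells with GFP and restricts the tamoxifen-activated recombinase to them. Every mouse had 3 tamoxifen injections and was taken at day 6, and the age is not given. WT (2 libraries) had no further allele. RingKO (2 libraries) was Ring1a-/- Ring1bf/f, so Ring1a was missing from every cell of the animal and Ring1b was floxed. Bcat (1 library) carried Ctnnb1-ex3, an altered beta-catenin allele, and Bcat_RingKO (1 library) carried Ctnnb1-ex3 with both Ring alleles. The labels do not say that libraries of a group came from separate animals, so p-values cover only library-to-library spread, and that spread may be technical.

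Listed entries received 6753789 and 6294932 reads in the WT libraries and 2911422 and 2651201 in the RingKO libraries. The Bcat library had 922153 and the Bcat_RingKO library 4470853. Libraries within WT and within RingKO carry the letters A and B, which cannot be tied to the replicate numbers of the labels. Ring1 (the gene of Ring1a) had 484 and 363 reads in WT against 9 and 11 in RingKO (log2 fold change -4.12 ± 0.25, SE), and 24 in Bcat against 43 in the deeper Bcat_RingKO library, a ratio of normalized reads of 0.358 (95% interval 0.213 to 0.617). Rnf2 (Ring1b) had 220 and 246 WT reads against 142 and 103 in RingKO, and 78 in Bcat against 546 in Bcat_RingKO, a ratio of 1.4 (1.1 to 1.8). Reads over the whole transcript do not check the floxed part. Of 10 stem cell markers all had reads in every library and 4 fell in RingKO, and of 7 epithelial markers 0 passed the authors' test (2 had an unadjusted p under 0.05; edgeR, DESeq2 and limma each called 0). RingKO library B held 222 Lgr5 reads and library A 461. The summed normalized reads of 6 Paneth cell markers were 17265 and 11811 in the WT libraries and 38440 and 48606 in the RingKO libraries.

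The first question was which of these regulators changed when Ring1a and Ring1b were targeted. Of the 47 genes listed, 24 rose and 0 fell. Both verbs are kept for changes whose adjusted p in the authors' deposited table lies below 0.05. Over all 18376 entries 3.14% rose and 1.76% fell by the same rule. Of the 47 genes 34 had at most 3 WT reads over both libraries, too few to be called lower. For them the absence of a fall is no result. The median log2 fold in the authors' deposited table was 3.08 over the 47 genes and 0.02 over all entries. An entry without any read has a log2 fold of 1.09 there, because 1 read was added before scaling, so the median of silent genes is shifted upward. With at most 3 WT reads the median was 4.01 for genes of the set and 1.06 over all such entries. Both RingKO libraries lay above both WT libraries in 35 of the 47 genes, among them the 24 that rose, and in 18% of all entries. For the 18 genes without WT reads this takes only 1 read in each RingKO library. The share over all entries is not limited to entries with so few WT reads. The summed normalized reads of all 47 were 702 and 714 in WT against 2996 and 3039 in RingKO. On the recovered reads edgeR tested 28 of the 47 and called 26 higher and 0 lower, where over all entries tested it called 9.91% higher and 2.95% lower. Of those 28 genes 17 had at most 3 WT reads and passed the filter on low counts through their RingKO reads, so nothing is read from this share. DESeq2 tested 32 of the 47 and called 26 as higher and 0 as lower. With the same filter as edgeR, limma-trend tested 28 and called 26 as higher and 0 as lower. Shares over all entries are not given for these tools, so nothing is read from their counts. Barx2 and Lmx1a were lower at an unadjusted p below 0.05 in the authors' deposited table, 2 of the 47. The share of all entries at that threshold is not given here, so nothing is read from this count.

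The starting state differed among the genes. In WT 18 of the 47 had no read in either library, 16 had 1 to 3 reads and 13 had more. Of the 34 genes with at most 3 WT reads 17 rose, against 2.71% of the 3955 entries of the whole table with so few. The tables list only entries with at least 1 read, so each of the 18 genes without WT reads has RingKO reads by construction, and their direction is no evidence. The other 17 with few WT reads stayed between 0 and 14 RingKO reads over both libraries, with a median of 2. In bulk libraries more cells that transcribe a gene and more RNA per cell cannot be told apart.

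**Figure D1:**
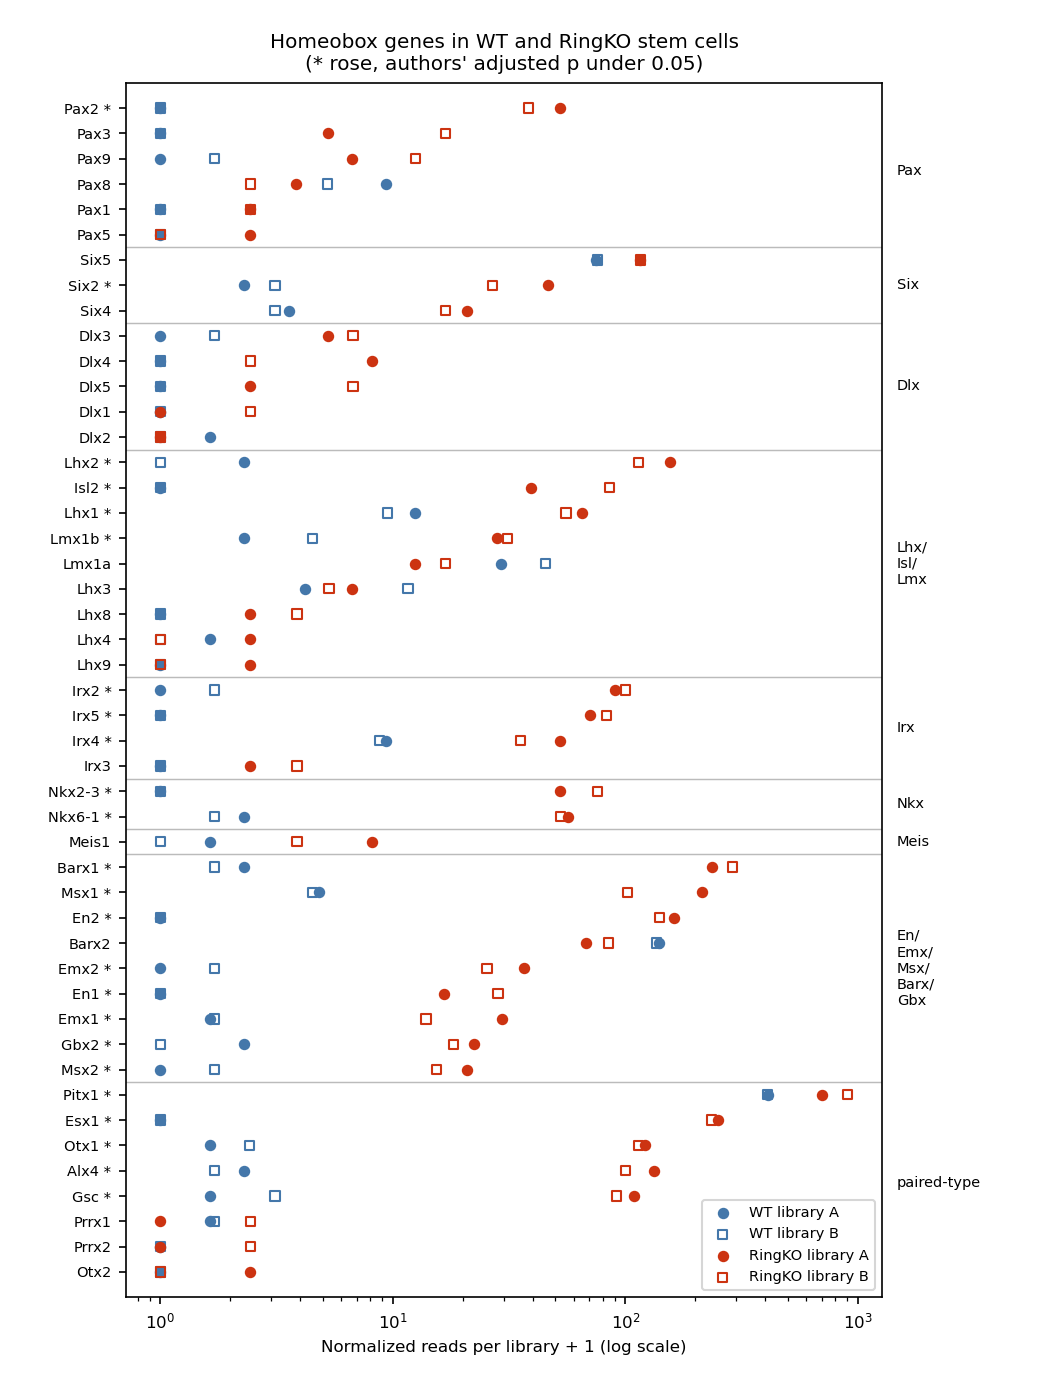
Normalized reads plus 1 (log axis) of the 47 homeobox genes in the first table, 1 row per gene in blocks by subfamily, with circles for library A and open squares for library B of WT (blue) and RingKO (red). An asterisk marks the 24 genes that rose; in each of them both red points lie to the right of both blue ones, while the Dlx, Meis and many Pax and Lhx genes stay near the left edge in both genotypes.

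The family of forebrain, midbrain and craniofacial factors related to En, Emx, Msx, Barx and Gbx held the most risers, with 8 of 9. En2, which patterns midbrain and cerebellum, had 0 and 0 WT reads against 113 and 97 in RingKO (WT library A and B, then RingKO A and B, here and below). Where WT has no reads, the fold is a bound set against 3 reads summed over both WT libraries (1.01 normalized), by which En2 was at least 149-fold higher. The reads of the other group enter such a bound as observed, and every interval and bound given here covers counting error only. Its paralog En1 had 0 and 0 WT reads against 11 and 19 in RingKO, at least 21.3-fold higher. Both engrailed genes thus went from no read to reads in each RingKO library.

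Barx1, a factor of stomach mesenchyme, had 2 and 1 WT reads against 165 and 200 in RingKO, a ratio of normalized reads of 259 (95% exact conditional binomial interval 88.0 to 1263). Msx1, a muscle-segment homeobox factor of limb, tooth and neural crest, had 6 and 5 WT reads against 150 and 70 in RingKO (log2 fold change 5.54 ± 0.46). Msx2 had 0 and 1 WT reads against 14 and 10 in RingKO, a ratio of 51.1 (8.34 to 2103). RingKO library A was the higher of the pair for both Msx genes, and library B for Barx1.

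The forebrain factor Emx2 had 0 and 1 WT reads against 25 and 17 in RingKO, a ratio of 89.5 (15.2 to 3618). Emx1 had 1 and 1 WT reads against 20 and 9 in RingKO, a ratio of 30.9 (7.82 to 267). Gbx2, which sets the border between midbrain and hindbrain, had 2 and 0 WT reads against 15 and 12 in RingKO, a ratio of 28.8 (7.23 to 250). Whether counting used strand is not given in the sources used here, so reads where Emx2 overlaps its antisense transcript Emx2os cannot be assigned; Emx2os itself had 1 and 3 WT reads against 2 and 7 in RingKO. The edgeR calls of these low-count genes depended on single libraries. Without RingKO library A, Emx1, Msx2 and Gbx2 no longer passed the filter on low counts and were not tested. The same held for En1 without RingKO library B. The Benjamini-Hochberg adjusted p from edgeR of Emx1 was 0.075 without WT library A and 0.070 without WT library B, that of Msx2 was 0.11 and 0.055, and that of Gbx2 was 0.10 without WT library B.

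Barx2 was the only gene of this family that did not rise. It was well expressed in WT, with 216 and 192 reads against 47 and 58 in RingKO, normalized levels of 138 and 135 against 66.8 and 83.3. Barx2, Lmx1a and Pax8 were the 3 genes with both RingKO libraries below both WT libraries, as in 33.6% of all entries, but the change missed the threshold both in the test of the authors' deposited table (adjusted p = 0.146) and by edgeR (log2 fold change -0.68 ± 0.20, adjusted p = 0.0651). Without RingKO library B edgeR called it lower (adjusted p = 0.0077).

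Among the 8 paired-type genes 5 rose. Esx1, an X-linked gene of placenta and testis, had 0 and 0 WT reads against 175 and 162 in RingKO, at least 239-fold higher. It had the smallest adjusted p of the set in the authors' deposited table (3.77e-49). Otx1, a forebrain and sense-organ factor, had 1 and 2 WT reads against 85 and 79 in RingKO, a ratio of 116 (39.2 to 571). Alx4, a limb and skull factor, had 2 and 1 WT reads against 93 and 69 in RingKO, a ratio of 115 (38.7 to 564). Gsc, the goosecoid gene of the gastrula organizer, had 1 and 3 WT reads against 76 and 63 in RingKO (log2 fold change 6.27 ± 0.43). The RingKO libraries of these 4 genes lay close together relative to their distance from WT.

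Pitx1 had by far more WT reads than any other riser. This hindlimb and pituitary factor had 643 and 578 WT reads against 491 and 628 in the shallower RingKO libraries, normalized levels of 411 and 407 against 698 and 902. Its log2 fold change was 1.15 ± 0.17, the smallest among the 24 risers, and its adjusted p in the authors' deposited table was 0.00721. Its edgeR adjusted p was 0.052 without WT library A and 0.056 without WT library B. The remaining paired-type genes, Prrx1, Prrx2 and Otx2, had 0 to 2 reads over the 2 libraries of either genotype.

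LIM-homeobox genes, whose products specify neurons and organ primordia, rose in 4 of 9 cases. Lhx2, a forebrain, eye and hair follicle factor, had 2 and 0 WT reads against 109 and 79 in RingKO, a ratio of 200 (54.7 to 1666). Isl2, a motor neuron factor, had 0 and 0 WT reads against 27 and 59 in RingKO, at least 61.1-fold higher, with normalized levels of 38.4 and 84.7 that made it the riser whose RingKO libraries differed most. Lhx1, a factor of head organizer and kidney, had 18 and 12 WT reads against 45 and 38 in RingKO (log2 fold change 2.73 ± 0.33). Lmx1b, a dorsal limb factor, had 2 and 5 WT reads against 19 and 21 in RingKO (log2 fold change 3.72 ± 0.52; edgeR adjusted p = 0.063 when WT library A was left out). Lhx4, Lhx8 and Lhx9 had 1 to 3 RingKO reads in all, and Lhx3 had 5 and 15 WT reads against 4 and 3, with overlapping normalized levels.

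Lmx1a, the paralog of Lmx1b, had lower values in RingKO that did not pass the test. It had 44 and 63 WT reads against 8 and 11 in RingKO, normalized levels of 28.1 and 44.4 against 11.4 and 15.8 (log2 fold change -1.22 ± 0.41, edgeR adjusted p = 0.10; 0.325 in the authors' deposited table). Lmx1a is known in the gut from serotonin-producing enteroendocrine cells. Of 10 enteroendocrine markers 7 fell and 1 rose in RingKO, and together they had 6821 and 8104 normalized reads in WT against 3267 and 3622 in RingKO. Only Cck among them had no RingKO reads, and their part in the Lmx1a values was not tested.

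Of the Irx genes, which pattern heart, limb and neural tube and lie in a pair of 3-gene clusters, 3 of 4 in the table rose. Irx5 had 0 and 0 WT reads against 49 and 57 in RingKO, at least 75.3-fold higher. Irx2 had 0 and 1 WT reads against 63 and 69 in RingKO, a ratio of 281 (49.6 to 11193). Irx4, a ventricle factor of the heart, had 13 and 11 WT reads against 36 and 24 in RingKO (log2 fold change 2.57 ± 0.37). Neighbours in the clusters did not share one state. In the RefSeq gene order Irx3 is next to Irx5 and had only 1 and 2 RingKO reads, while Irx2 and Irx4, next to each other in the other cluster, both rose. Irx1 and Irx6 have no row in either table.

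Both Nkx genes of the table rose. Nkx2-3, a factor of gut and spleen mesenchyme, had 0 and 0 WT reads against 36 and 52 in RingKO, at least 62.5-fold higher. Nkx6-1, a beta cell and motor neuron factor, had 2 and 1 WT reads against 39 and 36 in RingKO, a ratio of 53.3 (17.5 to 264). Since Barx1 and Nkx2-3 are genes of gut mesenchyme, 14 mesenchymal markers were read beside them. Of the 12 with a row 1 rose (Twist1, itself a developmental regulator) and 0 fell, and together they had 36.4 and 25.4 normalized reads in WT against 75.3 and 67.5 in RingKO. The collagen gene Col1a1 had 18 and 5 WT reads against 13 and 10 in RingKO, Col3a1 had 19 and 11 against 9 and 3, Pdgfra had 0 and 0 against 1 and 0, and Dcn and Lum had no RingKO reads. Foxf1, a mesenchymal transcription factor, had 0 and 0 against 7 and 8 and was called higher by edgeR (adjusted p = 0.0064; 0.0656 in the authors' deposited table). Of the 12 markers edgeR tested 4, DESeq2 5 and limma 4, and each called 2 as higher. Those called by edgeR were Twist1 (0 and 2 WT reads) and Foxf1, which passed the filter on low counts through their RingKO reads. Nothing is read from these counts. In normalized reads Barx1 had 1.28 and 0.705 in WT against 234 and 287 in RingKO, and Nkx2-3 had 0 and 0 against 51.2 and 74.7. The part of mesenchymal RNA in the values of Barx1 and Nkx2-3 was not tested.

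The Pax and sine oculis families were split. Pax2, a kidney, ear and eye factor, had 0 and 0 WT reads against 36 and 26 in RingKO, at least 44.0-fold higher, and was the only riser among 6 Pax genes. Pax3, a neural crest and muscle factor, had 0 and 0 WT reads against 3 and 11 in RingKO and passed by DESeq2 (adjusted p = 0.0184) but not in the authors' deposited table (0.315). Pax9 had 0 and 1 against 4 and 8 reads, Pax1 and Pax5 had at most 2 RingKO reads, and Pax8 had 13 and 6 against 2 and 1. Six2, which keeps nephron progenitors undifferentiated, had 2 and 3 WT reads against 32 and 18 in RingKO (log2 fold change 4.49 ± 0.54) and was the only riser among 3 genes of its family. Six4, with 4 and 3 reads against 14 and 11, passed by edgeR (adjusted p = 0.00623) and not in the authors' deposited table (0.0783). Six5, expressed in WT at normalized levels of 73.5 and 74.7 against 115 and 115 in RingKO, likewise passed by edgeR (adjusted p = 0.0228) and not in the authors' deposited table (0.440), and its edgeR adjusted p was 0.20 without WT library A and 0.21 without WT library B.

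The Dlx family, factors of forebrain interneurons and of the branchial arches, had few reads in any library. None of 5 Dlx genes rose, 0 were below an unadjusted p of 0.05 by the authors' deposited table, and edgeR, DESeq2 and limma had no adjusted p for any of them. Dlx4 had 5 and 1 RingKO reads, Dlx3 had 3 and 4, Dlx5 had 1 and 4, Dlx1 had 0 and 1 and Dlx2 had 0 and 0. Dlx3, with 0 and 1 WT reads, had a ratio of 14.9 whose interval (1.92 to 672) lay above 1. Dlx6, a family member outside the set that is named after its values were seen, rose from 0 and 0 to 12 and 6 reads, at least 12.8-fold. Meis1, a TALE-class cofactor of Hox proteins, had 1 and 0 WT reads against 5 and 2 in RingKO and did not pass. Meis2, Meis3, Pax7, Lhx6 and Nkx3-2, like Irx1 and Irx6, have no row in either table, and Six3 and Nkx2-5 only in the second. Every listed entry has at least 1 read in its table, so those genes were not analysed here in the tables that lack them.

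Levels were set side by side on a per-length scale, as RPKM, reads scaled to transcript length and to the assigned reads of the library. Among the 23 risers other than Pitx1 the highest WT value was 0.743 RPKM. In RingKO the same 23 genes ranged from 1.5 to 47.2 RPKM (mean of the libraries; median 5.52), and 7 lay above 10. Barx1 reached 40.5 and 53.9 RPKM, Esx1 37.6 and 38.2, Msx1 26.6 and 13.6, and Gsc 20.6 and 18.7. Pitx1 stood at 38.8 and 37.5 RPKM in WT and 68.8 and 96.6 in RingKO. Homeobox genes that belong to gut epithelium gave the comparison. Cdx1 was at 408 and 384 RPKM in WT and 237 and 305 in RingKO, Cdx2 at 204 and 193 against 166 and 185, and Isx at 75.1 and 68.9 against 28.4 and 36.2. In both RingKO libraries Barx1 and Esx1 therefore lay above Isx and below both caudal genes.

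**Figure D2:**
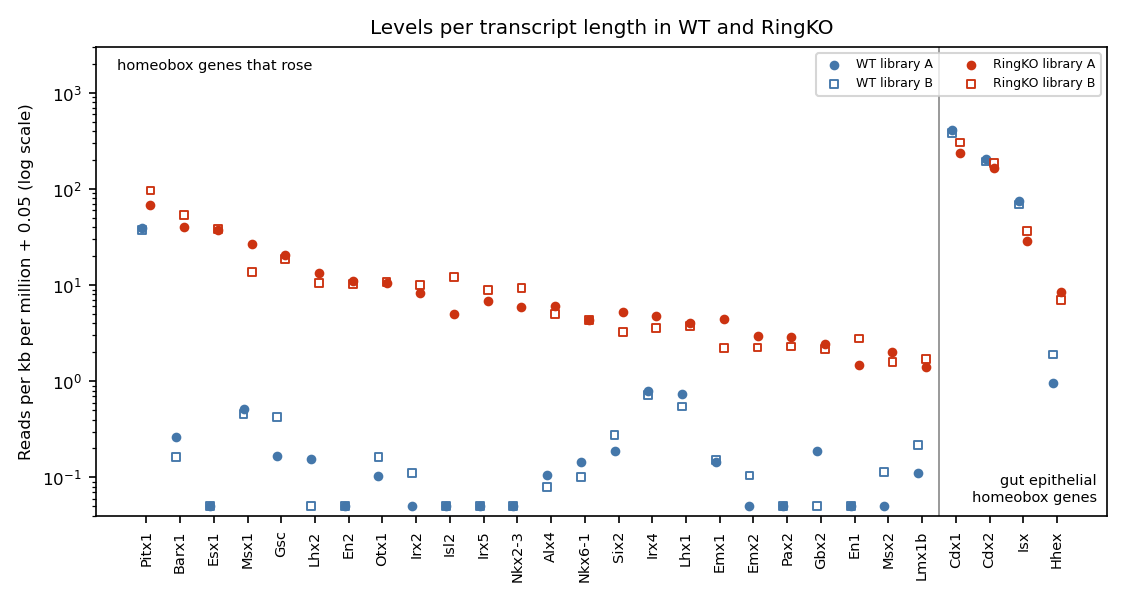
Levels per transcript length (RPKM plus 0.05, log axis) of the 24 homeobox genes that rose (left of the line) and of the gut epithelial homeobox genes Cdx1, Cdx2, Isx and Hhex (right), with circles for library A and open squares for library B of WT (blue) and RingKO (red). The risers other than Pitx1 go from at most 0.743 RPKM in WT to between 1.5 and 47.2 in RingKO (means of 2 libraries), below Cdx1 and Cdx2.

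Homeobox genes outside the set were counted the same way. Of 63 other developmental homeobox genes 38 were in the table, and 13 rose and 1 fell. Among those with the smallest adjusted p in the authors' deposited table were Pou3f3, Pou4f1, Nkx2-4, Rax and Pou3f1. The neural POU factor Pou3f3 had 0 and 0 WT reads against 38 and 44 in RingKO, at least 58.2-fold higher. The 1 that fell was Mnx1 (193 and 167 reads against 34 and 26; log2 fold change -1.31 ± 0.21), named after its values were seen. Of 11 gut epithelial homeobox genes 2 fell and 1 rose: Isx, a regulator of vitamin A uptake (-1.12 ± 0.16), and Cdx1 (-0.51 ± 0.16; edgeR adjusted p = 0.0873, above the threshold) fell, and Hhex (2.52 ± 0.40) rose. Isl1 (40 and 31 reads against 0 and 2) was the only 1 of 5 enteroendocrine homeobox genes to fall. Of 20 broadly expressed homeobox genes, among them the Pbx partners of Meis and Hox proteins, 0 passed in the authors' deposited table, where 3 had an unadjusted p under 0.05. On the recovered reads edgeR tested 15 of these 20 and called 3 as higher, against 9.91% of all entries it tested. DESeq2 tested 17 and called 3 as higher, and limma tested 15 and called 2. Shares over all entries are not given for DESeq2 and limma, so nothing is read from their counts. The median log2 fold in the authors' deposited table was 2.35 for the other developmental list, -0.35 for the gut list and -0.05 for the broadly expressed list.

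The promoters were examined because Polycomb targets in mammals are typically rich in CpG dinucleotides. RefSeq promoter windows (build GRCm38.p6, 250 bases before to 50 bases after the gene start) were matched for 44 of the 56 genes. The authors' files use another build, so no coordinate of theirs is compared. The CpG ratio is the observed number of CG pairs over the number that the C and G content would give. Its median was 0.860 in the 19 risers with a window, 0.609 in the 18 genes of the table that were not called and 0.671 in the 7 without a row in the first table. Over all 12182 genes of the table with a window it was 0.699, and over the 2128 of them with at most 3 WT reads it was 0.400. Over all 401 genes of the table that rose and had a window it was 0.721. A ratio of at least 0.6 was found in 18 of the 19 risers and 10 of the 18 genes not called. It was found in 61.2% of all genes, 70.8% of all genes that rose and 32.7% of the genes with at most 3 WT reads. These are descriptions without a test. The TATA box TATAAA, searched on both strands, occurred in 1 of the 19 risers (Gsc) and in 10.2% of all genes. It occurred in 8.73% of all genes that rose and in 15.9% of those with at most 3 WT reads.

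The following 6 windows show the range, written 5′ to 3′ on the strand of the gene with each CG pair in capitals. The first 3 belong to risers with a high ratio, the next to the riser with the lowest ratio, the one after it to a gene with a high ratio that stayed silent and the last to the gene with the lowest ratio of the set. Esx1 has 24 CG pairs at chrX:137120277-137120576 (minus strand), Barx1 has 50 at chr13:48662786-48663085 (plus strand) and Nkx6-1 has 40 at chr5:101664662-101664961 (minus strand). Nkx2-3 has 15 at chr19:43612075-43612374 (plus strand), Dlx2 has 29 at chr2:71546705-71547004 (minus strand) and Lhx8 has 4 at chr3:154330511-154330810 (minus strand).
Esx1: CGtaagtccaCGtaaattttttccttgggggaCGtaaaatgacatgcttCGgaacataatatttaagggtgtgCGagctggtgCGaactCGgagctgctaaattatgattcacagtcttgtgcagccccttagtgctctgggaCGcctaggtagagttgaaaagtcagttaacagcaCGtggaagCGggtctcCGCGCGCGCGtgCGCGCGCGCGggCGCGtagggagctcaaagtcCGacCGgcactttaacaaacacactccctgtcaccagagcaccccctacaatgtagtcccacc
Barx1: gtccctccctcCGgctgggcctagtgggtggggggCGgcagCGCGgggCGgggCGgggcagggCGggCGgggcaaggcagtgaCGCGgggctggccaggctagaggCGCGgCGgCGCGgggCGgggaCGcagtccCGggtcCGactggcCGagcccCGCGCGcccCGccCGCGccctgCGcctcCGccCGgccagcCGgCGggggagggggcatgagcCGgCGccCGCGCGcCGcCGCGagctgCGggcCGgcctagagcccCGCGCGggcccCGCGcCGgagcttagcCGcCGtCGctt
Nkx6-1: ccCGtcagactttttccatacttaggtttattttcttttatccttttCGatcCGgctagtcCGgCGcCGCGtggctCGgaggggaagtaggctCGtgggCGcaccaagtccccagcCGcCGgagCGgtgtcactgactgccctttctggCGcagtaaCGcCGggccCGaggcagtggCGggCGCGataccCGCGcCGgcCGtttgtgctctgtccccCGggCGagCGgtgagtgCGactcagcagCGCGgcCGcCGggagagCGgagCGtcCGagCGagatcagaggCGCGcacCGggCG
Nkx2-3: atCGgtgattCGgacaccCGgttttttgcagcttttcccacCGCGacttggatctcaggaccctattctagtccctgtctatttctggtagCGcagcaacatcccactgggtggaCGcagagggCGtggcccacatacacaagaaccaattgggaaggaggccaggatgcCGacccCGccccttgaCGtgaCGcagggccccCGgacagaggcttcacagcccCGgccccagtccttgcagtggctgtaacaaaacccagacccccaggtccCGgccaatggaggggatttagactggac
Dlx2: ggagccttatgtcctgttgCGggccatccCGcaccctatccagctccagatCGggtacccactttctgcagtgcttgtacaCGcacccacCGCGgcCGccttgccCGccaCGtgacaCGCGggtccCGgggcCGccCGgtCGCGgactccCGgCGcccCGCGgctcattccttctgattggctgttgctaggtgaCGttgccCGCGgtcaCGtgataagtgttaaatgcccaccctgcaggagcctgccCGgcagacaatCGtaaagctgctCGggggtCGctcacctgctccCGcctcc
Lhx8: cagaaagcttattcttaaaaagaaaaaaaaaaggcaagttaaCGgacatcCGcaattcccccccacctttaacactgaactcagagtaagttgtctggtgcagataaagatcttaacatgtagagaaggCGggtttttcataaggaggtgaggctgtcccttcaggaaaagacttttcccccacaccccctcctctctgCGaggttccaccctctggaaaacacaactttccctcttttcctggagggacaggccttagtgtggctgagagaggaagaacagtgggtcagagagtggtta
The CpG ratios of these windows are 1.10 for Esx1, 0.940 for Barx1, 1.18 for Nkx6-1, 0.559 for Nkx2-3, 0.898 for Dlx2 and 0.241 for Lhx8. Barx1 and Nkx6-1, with 3 WT reads each, had CG pairs on both sides of the gene start, whereas those of Esx1 all lay before it. Dlx2, with a ratio above the median of the risers, had 1 and 0 reads in WT and none in RingKO, so a high ratio did not set a riser apart in every case.

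**Figure D3:**
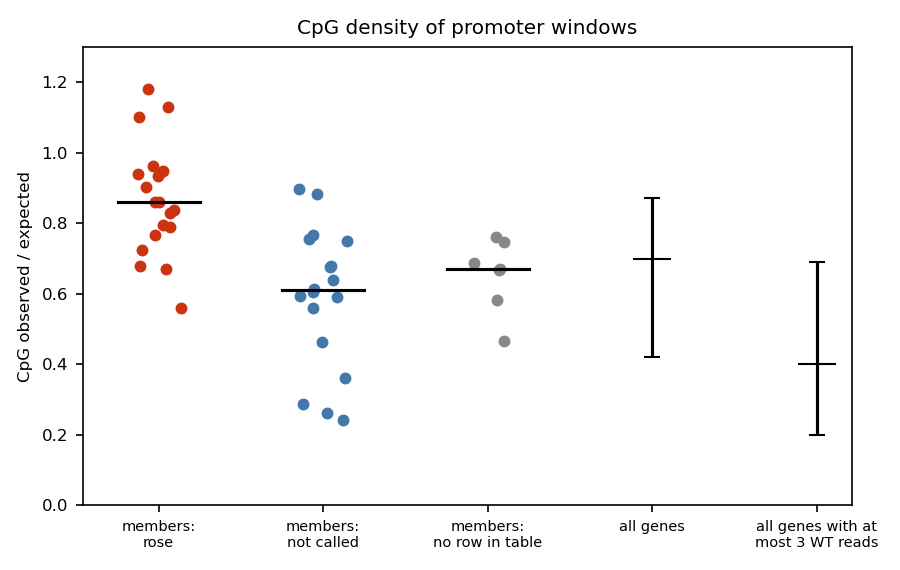
Observed over expected CpG ratio of promoter windows for homeobox genes that rose (19), were in the table and not called (18) or had no row in the first table (7), each point a gene and each bar a median, beside the median and quartiles of all 12182 genes and of the 2128 genes with at most 3 WT reads. The risers sit highest, with a median of 0.860, and their points overlap those of the genes not called.

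The second question was whether the same genes differ between Bcat and Bcat_RingKO. With 1 library per genotype there is no replicate check and no test. A gene counts as past 4-fold when its normalized reads are at least 4 times those of the other library, each other library floored at 3 of its own reads (a normalized level of 6.71 in Bcat and 1.34 in Bcat_RingKO). Of 44 genes 13 were past 4-fold higher and 1 past 4-fold lower, against 5.36% and 2.25% of all 17076 entries. All 24 genes that rose in RingKO are in this table, all 24 had a higher normalized level in Bcat_RingKO than in Bcat, and 12 of them were past 4-fold. In the Bcat library 18 of the 24 had no read, which makes them higher in Bcat_RingKO by construction, since every entry listed has a read. That library is also the shallowest, and in this comparison a gene without Bcat reads needs 60 Bcat_RingKO reads to be called. Of 31 genes of the set without Bcat reads 11 were past 4-fold higher, against 3.24% of all such entries.

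Barx1 had 0 reads in Bcat and 294 in Bcat_RingKO, at least 19.6-fold higher. Lhx2 had 0 and 237 (at least 15.8-fold), En2 0 and 230 (15.3-fold), Otx1 0 and 226 (15.1-fold) and Esx1 0 and 212 (14.1-fold). Msx1 had 0 and 190 (at least 12.7-fold), Irx2 0 and 189 (12.6-fold), and Irx5 and Isl2 each 0 and 143 (9.53-fold). Gsc had 0 and 97 (at least 6.47-fold), Nkx2-3 0 and 88 (5.87-fold), and Alx4 5 and 136, a ratio of 5.44 (95% interval 2.27 to 17.0). These 12 genes include forebrain, limb and gut mesenchyme factors. Beside Barx1 and Nkx2-3, the summed normalized reads of 10 mesenchymal markers were 114 in Bcat and 63.5 in Bcat_RingKO. Of these 10 markers 5 were past 4-fold lower and 0 past 4-fold higher. The rule is uneven between the directions. For a lower call 3 Bcat reads (6.71 normalized) are enough, being past 4-fold over the Bcat_RingKO floor of 1.34. For a higher call a gene without Bcat reads needs 60 Bcat_RingKO reads. Nothing is therefore read from 5 against 0. Lower were Col1a2 with 25 reads in Bcat and 0 in Bcat_RingKO, Col3a1 with 9 and 1, Acta2 with 4 and 1 and Des with 3 and 1. Col1a1 was the other, with normalized levels of 17.9 and 4.02. Twist1 had 0 and 54 reads, Foxf1 0 and 36, Foxl1 0 and 23 and Pdgfra 0 and 1, below the 60 reads needed for the call. Thy1, with 2 and 16 reads in libraries of unequal depth, was not called either. The part of these markers in the Barx1 and Nkx2-3 values was not tested.

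Of the other 12 risers, 7 had no Bcat read and 16 to 58 Bcat_RingKO reads, too few for the call. Emx2 had 58 Bcat_RingKO reads, Nkx6-1 55, Pax2 44, En1 41, Lmx1b 33, Gbx2 26 and Emx1 16. The remaining 5 had Bcat reads. Pitx1 had 44 and 541, a ratio of 2.46 (1.81 to 3.42), and Lhx1 had 6 and 71, a ratio of 2.37 (1.04 to 6.67). The intervals of Six2 (2 and 24 reads), Irx4 (5 and 49) and Msx2 (4 and 41) held 1.

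The table also gave values that differed from those of the first comparison. Six5, whose RingKO to WT ratio was 1.55, had 1 read in Bcat and 199 in Bcat_RingKO, a ratio of 39.8 (7.06 to 1580). On the per-length scale Six5 stood at 0.361 RPKM in Bcat, 14.8 in Bcat_RingKO, 5.66 and 5.60 in WT and 9.25 and 10 in RingKO, so the Bcat library was the low one; the tables were scaled separately and this order has no test. Lmx1a had 12 and 7 reads, a ratio of 0.117 (0.0389 to 0.321), the 1 gene past 4-fold lower. The summed normalized reads of 9 enteroendocrine markers were 4718 in Bcat and 980 in Bcat_RingKO beside it, and their part in the Lmx1a ratio was not tested. Barx2 had 28 and 138 reads, a ratio of 0.986 (0.653 to 1.54). The Dlx genes of the table had no Bcat read and 1 to 12 Bcat_RingKO reads.

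**Figure D4:**
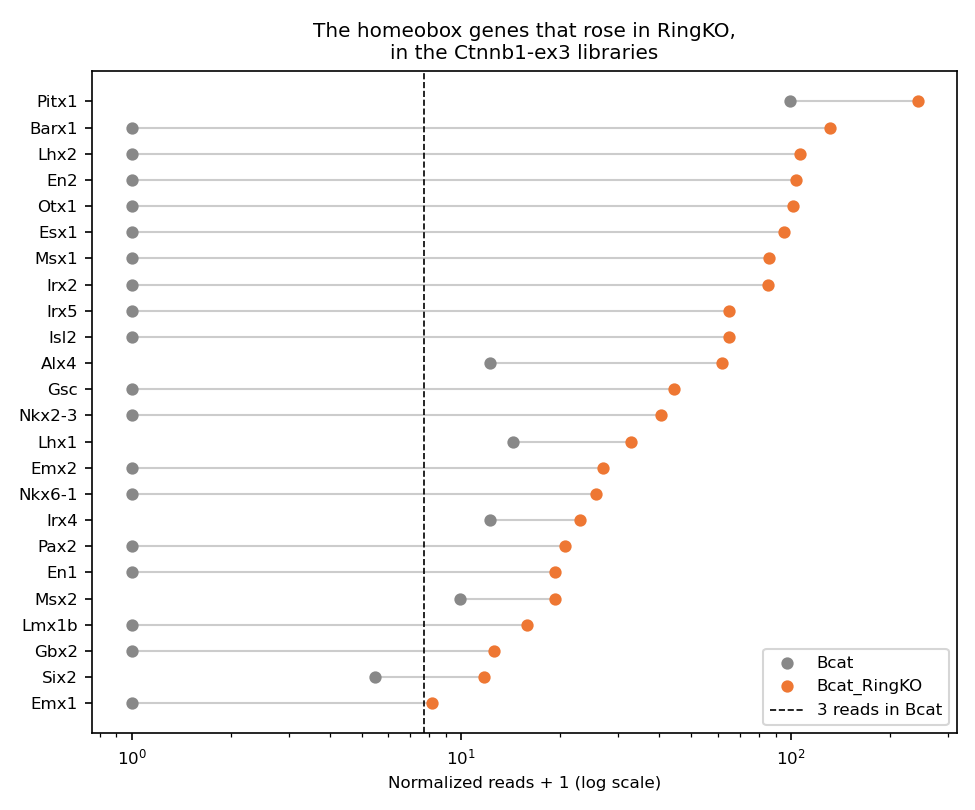
Normalized reads plus 1 (log axis) of the 24 homeobox genes that rose in RingKO, in the Bcat library (grey) and the Bcat_RingKO library (orange), ordered by the latter, with the level of 3 Bcat reads as a dashed line. In all 24 genes the orange point lies to the right, and 18 grey points stand at no reads.

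The order of levels was similar in both settings. Across the 24 risers the Spearman correlation between the mean RPKM of the RingKO libraries and the RPKM of Bcat_RingKO was 0.93. This is a description across genes, which are not independent and which share transcript lengths, the read assignment and the Ring alleles. Barx1 was at 47.0 RPKM in Bcat_RingKO, Pitx1 at 49.4, Esx1 at 29.6 and Msx1 at 22, and the 23 risers without Pitx1 had a median of 5.79 RPKM there.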

How the data were processed

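RNA was sequenced from Lgr5-GFP+ crypt cells of mouse small intestine with the TruSeq RNA v2 kit, per the labels' protocols. TopHat, DESeq and build mm9 are named by the submitters' processing notes, while read counter, annotation and strand use were not given in the sources used here. The authors deposited normalized coverage (signal) per RefSeq entry: a mean over libraries in the WT and RingKO columns, and single libraries in the Bcat columns. The authors deposited the fold (ratio) and its log2 value in both tables, and p-values with Benjamini-Hochberg adjusted p-values in the first. The second table's p-values compare 1 library with 1 and were not used. From the values, a deposited signal is a library's reads plus 1 over its size factor (a mean of 2 such terms in the first table). No entry is without reads in its table.

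Whole reads were therefore recovered. In WT 18354 of 18376 means had 1 solution and in RingKO 18373; the others were at 10030 or above in WT, and the most even solution was taken. Of the single-library values, 17076 of 17076 per column were whole within 0.001. Recovery was tested on simulated means (18372 of 18376 WT entries right). Reads over the authors' size factor are called normalized reads. edgeR 4.0.16 (quasi-likelihood, TMM, filterByExpr), DESeq2 1.42.0 and limma 3.58.1 (trend, log2 of normalized reads plus 1) were run on all entries and tested on simulated counts. Log2 fold changes with SE are from edgeR, and each SE is the absolute log2 fold change over the square root of its quasi-likelihood F statistic. They are not given for genes with at most 3 WT reads. There a ratio with its 95% Clopper-Pearson interval or, without WT reads, a bound stands. RPKM used transcript lengths of GENCODE M21.

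The genes, lists, tests and naming rule were chosen with earlier results of these data known. Named were all 56 genes by counts or values, with every library given for those that passed or had a WT mean of at least 10, the 6 first of the other developmental list and up to 4 that passed in each further list. Some genes that this rule names are not reported here. Protein sequences were not used here.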

Additional observations from a re-analysis of the deposited data

How the results depend on the processing

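The 24 risers by the authors' test were 26 by edgeR, DESeq2 and limma. They were 23 at an adjusted p under 0.01 or with a mean of at least 10 required, and 24 with the lowest RefSeq row. As above, nothing is read from the counts of these tools, since 17 genes with at most 3 WT reads entered edgeR and limma through their RingKO reads. The lowest row could change only Otx2, which was not called. The 26 of edgeR were 26 with DESeq2 size factors, 28 without the filter and 20 to 25 with 1 library left out. No gene was lower, except that leaving out 1 library gave 0 to 1 (Barx2, without RingKO library B). The median log2 fold of 3.08 was 5.09 at a mean of at least 10. That mean is taken over both genotypes, so a gene silent in WT is kept only where its RingKO level is high. Nothing is read from this higher median. The median was 2.50 and 1.64 with 1 and 5 added to normalized reads, and 2.83 to 3.36 with 1 library left out. The 13 genes past 4-fold higher in Bcat_RingKO were 21 at 2-fold, 20 with a floor of 1 read, 5 with a floor of 10 reads and 13 with TMM scaling; the 1 lower gene was 2 at 2-fold and 2 with a floor of 1 read. TMM scaling moved all log2 values by 0.15 in RingKO against WT and by -0.22 in the Bcat pair. Depth limits the second comparison, since 3 Bcat reads are a normalized level of 6.71, as does its single library per genotype. No paired analysis was possible because the deposited columns carry no replicate numbers.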
